A study of Mus musculus with 6 samples.

Results

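Hyaluronan is a long sugar polymer of the extracellular matrix, and the genes described here make it, break it down, bind it at the cell surface or build it into matrix. They are Cd44, Has1, Has2, Has3, Hyal1, Hyal2, Hmmr, Tnfaip6 and Vcan, and a probe set of the array counted as a member where the platform annotation lists 1 of these symbols for it and no other. This gave 23 of 45037 probe sets, for 8 of the 9 genes. The 2 probe sets of Hyal1 are annotated jointly with Naa80, so Hyal1 is not described here. The genes belong together by function, but the set was chosen with knowledge from these same 6 arrays, and the null minus heterozygous differences are the values it was selected on. Those differences are therefore given as a description, and nothing is supported with them.

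Gene expression was compared in fracture callus, the repair tissue that forms at a broken bone, of mice lacking Cyp24a1 (genotype Cyp24a1 (-/-), 3 arrays) and of heterozygous littermates (genotype Cyp24a1 (+/-), 3 arrays). Cyp24a1 encodes the hydroxylase that inactivates the hormonal form of vitamin D. The controls carry 1 disrupted allele, so no wild-type tissue entered the comparison. All mice had a C57BL6J x 129SV mixed background, were operated on at 12 weeks of age by cutting the tibia around a stabilising rod in its marrow cavity, and gave callus on day 14. The labels do not say whether a sample is 1 animal or a pool, so the errors measure the spread between these samples. Total RNA was hybridised to Affymetrix arrays that cover the mouse genome, and levels are given on the log2 scale as deposited, where a difference of 1 is a doubling. The number of arrays limits the precision.

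Hyaluronan is extruded through the plasma membrane by the hyaluronan synthases, encoded by the Has genes, and is cut by hyaluronidases, among them the membrane-anchored Hyal2. Cd44 is its main cell surface receptor, carried by leukocytes, osteoclasts and mesenchymal cells, and Hmmr (RHAMM, CD168) is a second binding protein that also works inside the cell at the mitotic spindle. Versican, the product of Vcan, is a large proteoglycan that binds hyaluronan in loose, provisional matrix, and Tnfaip6 encodes TSG-6, an inflammation-induced protein that transfers heavy chains of inter-alpha-inhibitor onto hyaluronan. In early callus a hyaluronan-rich matrix precedes cartilage and bone.

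The promoters of Cd44 and Tnfaip6 are shown because the genotypes did not overlap on 2 of the 4 Cd44 probe sets and on that of Tnfaip6, and that of Hmmr because its profile lay close to those of mitosis genes. The genotypes did not overlap on Vcan 1427256_at and Has2 1418678_at either, but the promoters of these genes are not shown. The sequences are from RefSeq on GRCm38.p6 and lie upstream of every annotated start of the gene. Of the 9 genes, 7 had an entry. Capitals mark matches, on either strand, to the AP-1 motif TGANTCA or the CCAAT box, 2 motifs that do not overlap each other here.
Cd44 (chr2:102901670-102901915, minus strand): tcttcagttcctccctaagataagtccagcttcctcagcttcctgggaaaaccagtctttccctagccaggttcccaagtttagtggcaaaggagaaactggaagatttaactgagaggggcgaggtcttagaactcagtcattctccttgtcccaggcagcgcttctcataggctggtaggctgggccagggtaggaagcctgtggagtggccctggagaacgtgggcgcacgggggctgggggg
Tnfaip6 (chr2:52037863-52038112, plus strand): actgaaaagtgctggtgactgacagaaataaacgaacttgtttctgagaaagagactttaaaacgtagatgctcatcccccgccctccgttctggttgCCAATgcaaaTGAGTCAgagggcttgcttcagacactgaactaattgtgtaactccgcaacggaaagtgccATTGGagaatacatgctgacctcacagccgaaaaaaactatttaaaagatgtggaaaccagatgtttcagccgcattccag
Hmmr (chr11:40733465-40733687, minus strand): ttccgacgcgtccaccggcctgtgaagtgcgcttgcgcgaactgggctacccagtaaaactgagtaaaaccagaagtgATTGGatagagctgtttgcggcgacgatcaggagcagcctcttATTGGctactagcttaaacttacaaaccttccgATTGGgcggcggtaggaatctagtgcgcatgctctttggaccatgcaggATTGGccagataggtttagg

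The Hmmr promoter held 4 CCAAT boxes, all on the strand opposite to the gene, and 202 of 32851 promoters (0.615%) held at least as many in the same stretch. The Tnfaip6 promoter held 1 AP-1 motif, which 6.75% of promoters have in that stretch, and 2 CCAAT boxes, a number that 10.1% reach or exceed. The Cd44 promoter held neither motif, found in 6.69% and 33.6% of promoters over its length. None of the 3 held the cell cycle element TTTGAA, present in 14.8% to 16% of promoters. Other forms of the element were not sought. Of 250 bases upstream, those nearest the start were not searched for Hmmr (223 searched) and Cd44 (246 searched). A vitamin D response element, searched as 2 copies of AGGTCA or 2 copies of AGTTCA in the same orientation with 3 bases between them, was not found either, and at most 2 of all promoters matched one. A match is a match of letters and not a measured site.

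Low values needed a reference level. Xist and Y-linked transcripts have values from 2.18 to 3.52 on arrays where they are low, and 3.52 served as a guide to background. The 6 probe sets used for this ranged over at least 3 log2 units between arrays, so both sexes appear to be among the samples. How the sexes fell over the genotypes was not analysed here, and sex was not in the fitted model. Of the 23 probe sets, 10 lay above it on all 6 arrays and 7 lay at or under it on all 6. The genotype itself could not be checked. The 2 probe sets of Cyp24a1 averaged 3.36 and 3.27 on the null arrays and 2.90 and 3.34 on the heterozygous arrays, near or under the guide, and no source used here places them inside or outside the stretch that was disrupted. Skeletal genes were present. Col1a1 lay between 13.57 and 14.28 and Col2a1 between 7.04 and 9.76, all 9 measured osteoblast genes were above the guide on every array, and of 13 cartilage genes Matn1 and Hapln1 were at or under it throughout. Null replicate 1 and heterozygous replicate 3 stood apart by low bone marrow transcripts, with neutrophil list means of -2.72 and -3.24 relative to each gene's mean, against 1.23 to 1.81 on the other 4 arrays. Differences of the hyaluronan genes are therefore also given without these 2 arrays. Of other lists, all 10 keratinocyte genes had a higher null mean, with a median difference of 1.27, and 9 of 10 did without the marrow-poor arrays, with a median of 0.90. A higher null mean was seen for 4 of 13 cartilage, 2 of 9 osteoblast and 0 of 10 skeletal muscle genes, against 49.7% of all genes. Their median differences were -0.20, -0.16 and -0.06. Without the marrow-poor arrays the counts were 3, 4 and 4, and the medians -0.32, -0.04 and -0.03.

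Across the 23 probe sets, 15 had a higher mean in null callus and 8 a lower one, and the median difference (null minus heterozygous) was 0.15. Over all probe sets 48% were higher and the median was -0.01. The 10 probe sets above the guide on all arrays had a median of 0.48 with 9 higher. The 7 at or under it had a median of -0.03 with 2 higher. In the limma fit over all 45037 probe sets, 0 of the 23 had a Benjamini-Hochberg adjusted p under 0.05, as did 0% of all, and the lowest adjusted p among the 23 was 0.999. At an unadjusted p under 0.05 there were 6 of the 23, all higher in null callus, where 3.69% of all probe sets reached it, 1.63% higher and 2.06% lower. The 3 null values lay above all 3 heterozygous values for 5 of the 23, which belong to 4 genes (Cd44, Vcan, Tnfaip6 and Has2), and below them for none. Over all probe sets the null values lay above in 3.57% and below in 5.38%, or 8.95% together. Among the 10 above the guide on all arrays 3 had null values above, where 4.1% of the 26555 such probe sets did. Since the set was chosen with this contrast in view, nothing is read from these counts.

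**Figure D1:**
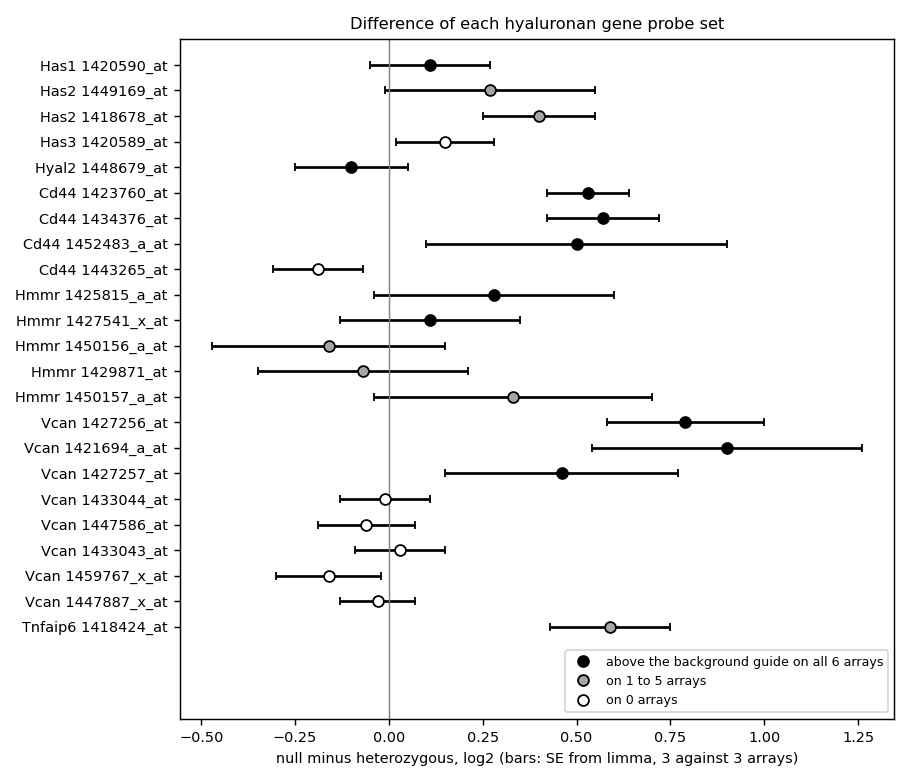
Null minus heterozygous difference (x axis, log2, with the SE from limma for 3 against 3 arrays) of all 23 probe sets (y axis), ordered by role. Filled points lie above the background guide of 3.52 on all 6 arrays, grey points on some and open points on none. The Cd44, Vcan and Tnfaip6 points furthest to the right lie between 0.46 and 0.90, and the open points lie between -0.19 and 0.15.

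The synthases were weakly measured. Has2, the main synthase of embryonic and mesenchymal tissue, had values of 3.98, 3.61 and 3.66 on the null arrays and 3.14, 3.41 and 3.50 on the heterozygous arrays on probe set 1418678_at. The null values were all above the heterozygous ones, by a gap of only 0.11, and every heterozygous value was at or under the guide. Measured against the guide, the null mean was at least 1.17-fold higher, and the fitted difference was 0.40 (SE 0.15). Its second probe set, 1449169_at, stood at 4.38 on null replicate 1 and between 3.34 and 3.57 on the other 5 arrays. Its difference of 0.27 (SE 0.28) was -0.06 without that array. Without both marrow-poor arrays the Has2 differences were 0.36 on 1418678_at and -0.01 on 1449169_at. Has1 (1420590_at) gave 4.48, 4.87 and 4.61 on the null arrays and 4.49, 4.80 and 4.35 on the heterozygous arrays. These groups overlapped over most of their range, and the difference was 0.11 (SE 0.16). Has3 (1420589_at) stayed between 2.57 and 3.03 on all arrays, under the guide, so no fold is given. Without both marrow-poor arrays Has1 differed by 0.10 (SE 0.17) and Has3 by 0.07 (SE 0.13).

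Hyal2, a hyaluronidase anchored to the cell membrane by a lipid, was clearly measured, and its groups overlapped. Probe set 1448679_at gave 6.99, 6.82 and 6.53 on the null arrays and 6.79, 6.81 and 7.05 on the heterozygous arrays. The means were 6.78 ± 0.23 (SD, n = 3) and 6.88 ± 0.14 (SD, n = 3), and the difference of -0.10 (SE 0.15) was 0.02 without null replicate 3 and -0.13 (SE 0.15) without both marrow-poor arrays. The lowest and the second highest of the 6 values both came from null callus.

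Cd44 had higher values in null callus on the 3 probe sets that measured it above background. Probe set 1423760_at gave 10.07, 10.07 and 10.08 on the null arrays and 9.68, 9.39 and 9.57 on the heterozygous arrays. The null arrays were nearly identical, and the gap to the highest heterozygous array was 0.40. The means were 10.08 ± 0.0049 (SD, n = 3) and 9.55 ± 0.15 (SD, n = 3), which differed by 0.53 (SE 0.11), equal to 1.44-fold. Probe set 1434376_at gave 9.24, 9.28 and 9.42 on the null arrays and 8.83, 8.46 and 8.93 on the heterozygous arrays. Here too the groups did not overlap, and the difference was 0.57 (SE 0.15) or 1.49-fold. On the first of these probe sets the marrow-poor null array had the same value as the other null arrays.

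The other Cd44 probe sets showed no such separation. Probe set 1452483_a_at gave 6.88, 7.32 and 6.70 on the null arrays and 6.87, 5.56 and 6.97 on the heterozygous arrays. Its groups overlapped, and its difference of 0.50 (SE 0.40) was 0.04 without heterozygous replicate 2 and 0.79 (SE 0.46) without both marrow-poor arrays. Probe set 1443265_at lay between 2.39 and 2.78, under the guide, with a difference of -0.19 (SE 0.12), or -0.30 (SE 0.13) without the marrow-poor arrays, so that 3 of 4 Cd44 probe sets had the higher direction. The profiles of 1423760_at and 1434376_at over the 6 arrays, each centred on its own mean, differed by a root mean square of 0.10. The profile of 1452483_a_at differed from theirs by 0.42 and 0.39. The exons that each probe set reads were not analysed here.

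The Cd44 differences of these probe sets stayed above 0 with arrays left out. For 1423760_at the difference ran from 0.45 to 0.60 as each array was left out in turn, and for 1434376_at from 0.43 to 0.66. Without both marrow-poor arrays they were 0.55 (SE 0.15) and 0.70 (SE 0.17). Markers of macrophages, which carry much Cd44, had differences in the same direction. So did the keratinocyte, fibroblast and tendon, and endothelial lists, with median differences of 1.27, 0.43 and 0.26. All 18 measured macrophage genes had a higher mean in null callus, with differences from 0.31 for Aif1 to 1.37 for Marco and a median of 0.53, and 0 of them passed limma's test after adjustment over all probe sets. Of the 18, 17 lay above the guide on every array. Their list mean was 0.93, -0.26 and 0.26 on the null arrays and -0.27, -0.79 and 0.12 on the heterozygous arrays, with overlapping groups. Without null replicate 1, 14 of the 18 were higher with a median of 0.19, and without heterozygous replicate 2, 16 were with a median of 0.23. Without both marrow-poor arrays the count was 18 and the median 0.55. With this list mean as a covariate, a setting chosen after seeing the data, the differences were 0.48 (SE 0.14) for 1423760_at, 0.47 (SE 0.18) for 1434376_at and 0.26 (SE 0.47) in place of 0.50 for 1452483_a_at. Fewer cells of a type and less RNA per cell cannot be told apart in such bulk tissue.

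The genes whose profile over the 6 arrays was most like that of Cd44 1423760_at, among 11194 genes above the median level, were Glipr1, Cybb and Pqlc3. Likeness was the root mean square difference between centred log2 profiles, which was 0.049, 0.054 and 0.079 for these and 0.35 for the median gene. Cybb, which encodes the catalytic subunit of the phagocyte NADPH oxidase, gave 9.59, 9.56 and 9.61 on the null arrays and 9.22, 8.77 and 9.02 on the heterozygous arrays. Glipr1 gave 8.04, 8.17 and 8.17 against 7.75, 7.46 and 7.57. All 3 null values lay above all 3 heterozygous values in each of these genes, as they do in Cd44, to which they were matched.

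Vcan had the largest differences of the set. Probe set 1427256_at gave 7.53, 7.17 and 7.48 on the null arrays and 6.69, 6.19 and 6.92 on the heterozygous arrays. The groups were separated by 0.25, and the means of 7.39 ± 0.20 (SD, n = 3) and 6.60 ± 0.37 (SD, n = 3) differed by 0.79 (SE 0.21) or 1.73-fold. Probe set 1421694_a_at gave 7.40, 6.32 and 6.56 on the null arrays and 5.93, 5.32 and 6.33 on the heterozygous arrays. Its difference was 0.90 (SE 0.36) or 1.87-fold, and the groups overlapped by 0.01 because heterozygous replicate 3 stood just above null replicate 2. Without null replicate 1, the highest array, the difference was 0.58.

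Another Vcan probe set, 1427257_at, stood at 6.68 on null replicate 1 and between 5.43 and 5.64 on the other 5 arrays. Its difference of 0.46 (SE 0.31) was 0.09 without that array and 0.11 (SE 0.13) without both marrow-poor arrays. The remaining 5 Vcan probe sets lay at or under the guide throughout, with differences from -0.16 to 0.03, and from -0.31 to 0.09 without the marrow-poor arrays. Of all 8 probe sets, 4 were higher and 4 lower in null callus, and the 3 that measured the gene above background were all higher.

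The Vcan values and several marker lists were lowest on the same array. All 6 Cd44 and Vcan probe sets above the guide had their lowest value on heterozygous replicate 2, the array on which the macrophage list (-0.79), the fibroblast and tendon list (-0.53) and the endothelial list (-0.35) were also lowest. Of the fibroblast and tendon genes 11 of 12 and of the endothelial genes 8 of 8 had a higher null mean. Vcan 1421694_a_at was highest on null replicate 1. The macrophage (0.93), fibroblast and tendon (0.38) and keratinocyte (1.28) lists were highest there too. With the macrophage list mean as a covariate the difference of 1421694_a_at was 0.28 (SE 0.15) in place of 0.90, that of 1427256_at was 0.48 (SE 0.17) in place of 0.79, and that of 1427257_at was 0.07 (SE 0.28) in place of 0.46. Without both marrow-poor arrays 1421694_a_at differed by 0.82 (SE 0.23) and 1427256_at by 0.88 (SE 0.22). What part macrophages have in the Cd44 and Vcan levels was not tested. The fibroblast and tendon, endothelial and keratinocyte list means were not fitted as covariates. The genes most like Vcan 1427256_at were Wipf1, Lyz2 and Camk1d, at root mean square differences of 0.10, 0.11 and 0.13, where the median gene was at 0.50. Lyz2, the lysozyme gene of macrophages and a member of the macrophage list, gave 12.83, 12.41 and 12.81 on the null arrays and 12.25, 11.61 and 12.44 on the heterozygous arrays.

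**Figure D2:**
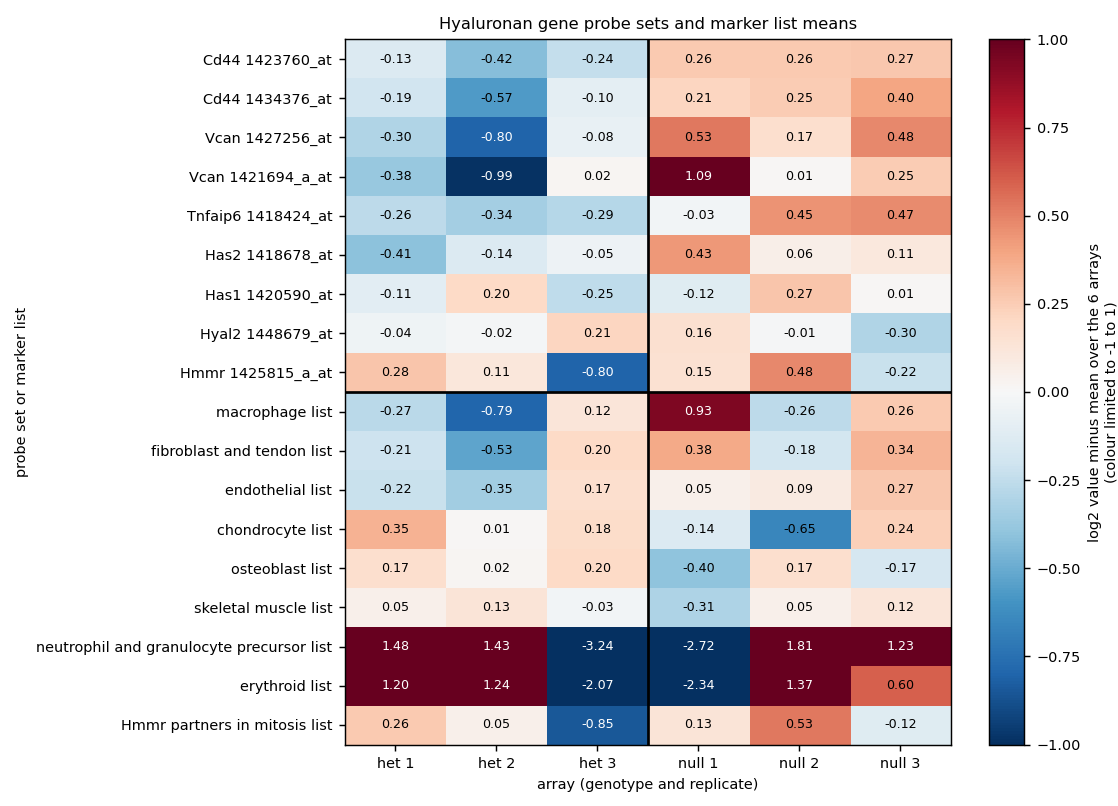
Log2 value minus the mean over the 6 arrays (colour and printed number) for 9 probe sets of hyaluronan genes and, below the line, for the means of marker lists, on each array (x axis). Colour is limited to -1 to 1. Cd44 and Vcan are lowest on heterozygous replicate 2, as is the macrophage list at -0.79, and the neutrophil and erythroid lists set null replicate 1 and heterozygous replicate 3 apart.

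Tnfaip6, whose protein crosslinks hyaluronan in inflamed tissue, was low on all arrays. Probe set 1418424_at gave 3.31, 3.79 and 3.81 on the null arrays and 3.07, 3.00 and 3.05 on the heterozygous arrays. The heterozygous values had an SD of 0.04 (n = 3) and were all under the guide, and null replicate 1 was under it as well. The groups did not overlap and the fitted difference was 0.59 (SE 0.16), but measured against the guide the null mean was only at least 1.08-fold higher. The lowest null array was the marrow-poor replicate 1, and without both marrow-poor arrays the difference was 0.76 (SE 0.12). With the macrophage list mean as a covariate it was 0.75 (SE 0.17), larger than without the covariate, while the Vcan differences were smaller. Zfand4, Arap2 and Flvcr1 had the most similar profiles, at root mean square differences of 0.11, 0.13 and 0.13 where the median gene was at 0.41.

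**Figure D3:**
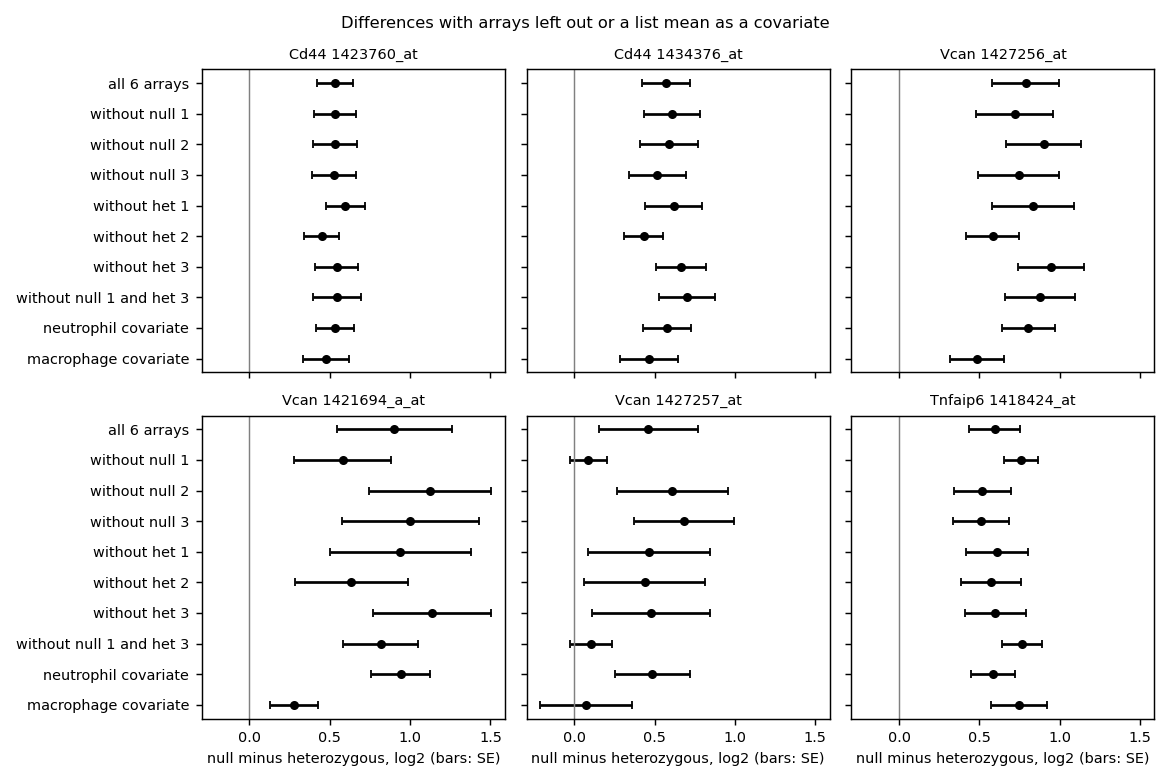
Null minus heterozygous difference (x axis, log2, bars are the SE) of 6 probe sets of Cd44, Vcan and Tnfaip6 with all 6 arrays, with arrays left out and with a marker list mean as a covariate (y axis). The 2 Cd44 probe sets stay between 0.43 and 0.70, and Vcan 1421694_a_at runs from 0.28 with the macrophage covariate to 1.14 without heterozygous replicate 3.

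Hmmr did not separate the genotypes on any of its 5 probe sets. The best measured one, 1425815_a_at, gave 6.04, 6.37 and 5.66 on the null arrays and 6.17, 6.00 and 5.09 on the heterozygous arrays, a difference of 0.28 (SE 0.32) that was -0.06 without heterozygous replicate 3, and also -0.06 (SE 0.25) without both marrow-poor arrays. The other 4 probe sets had differences from -0.16 to 0.33, in both directions, with SEs from 0.24 to 0.37. Without both marrow-poor arrays these 4 ran from -0.49 (1450156_a_at) to 0.35 (1450157_a_at). Probe set 1450157_a_at stood at 4.56 on null replicate 2 and between 3.04 and 3.55 on the other 5 arrays, and its difference of 0.33 (SE 0.37) was -0.10 without that array. All 5 probe sets were lowest on heterozygous replicate 3, and 3 of them were highest on null replicate 2. The list of 17 measured genes of mitosis and proliferation had its lowest mean, -0.85, and its highest mean, 0.53, on the same 2 arrays. The genes most like 1425815_a_at were Aspm, Incenp and Nuf2, all of the mitotic spindle and kinetochore, at root mean square differences of 0.076, 0.078 and 0.087 where the median gene was at 0.47. Hmmr is the gene whose promoter, shown above, holds 4 CCAAT boxes. Whether these bear on its profile was not tested, and the promoters of the mitosis genes were not described.

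**Figure D4:**
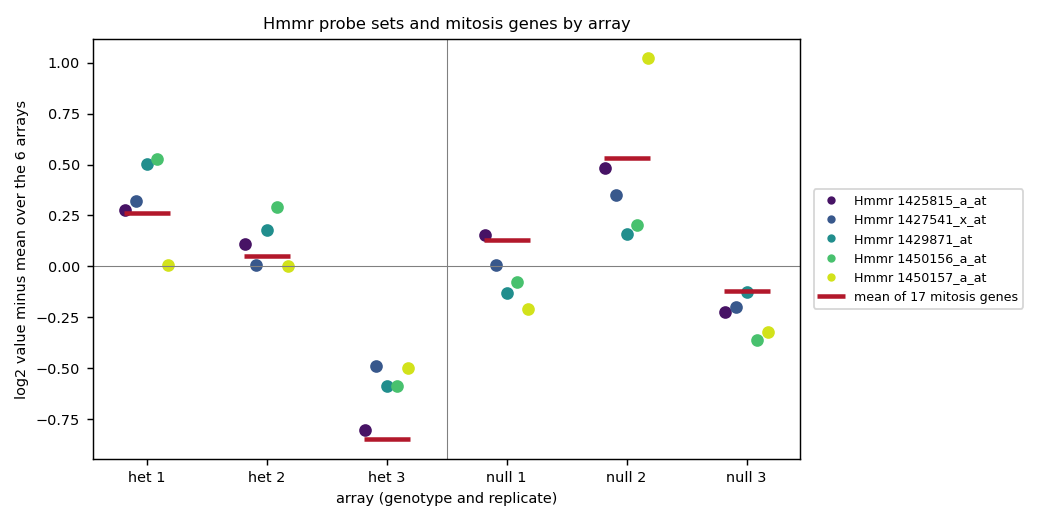
Log2 value minus the mean over the 6 arrays (y axis) for the 5 Hmmr probe sets (points) and the mean of 17 mitosis genes (bars) on each array (x axis). Every probe set and the list mean are lowest on heterozygous replicate 3, where the list mean is -0.85.

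In the mitosis list 17 of 17 genes had a higher null mean with a median difference of 0.37, and 0 passed limma's adjusted test in either direction. Without heterozygous replicate 3 the count was 9 of 17 and the median 0.05, and without both marrow-poor arrays 10 of 17 and 0.04. Without null replicate 2 it was 16 of 17 with a median of 0.15. Tpx2, which recruits the kinase Aurka to spindle microtubules and acts with Hmmr, differed by 0.54 (SE 0.28), by 0.25 without heterozygous replicate 3 and by 0.20 without both marrow-poor arrays. Cenpe, a kinetochore motor, differed by 0.62 (SE 0.35), by 0.26 and 0.21 under these omissions. The kinesin gene Kif20a differed by 0.61 (SE 0.36), by 0.32 and 0.18, and the cyclin-dependent kinase gene Cdk1 by 0.48 (SE 0.30), by 0.19 and 0.14. The groups of all 4 overlapped.

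The other genes around hyaluronan were described from lists, with 1 probe set per gene, where 49.7% of all 18193 genes were higher in null callus and the median was 0.00. In all 7 lists, mitosis included, 0 genes passed limma's test in either direction (adjusted p = 0.999 for each gene named), and at an unadjusted p under 0.05, which 4.49% of all genes reached, there were only Ptx3, Prg4 and Adamts5, all higher in null callus. The matrix partners had 15 of 24 genes higher and a median of 0.10, and 15 of 24 and 0.06 without both marrow-poor arrays. Only 15 of the 24, not the same genes, lay above the guide on all 6 arrays. Ptx3, a pentraxin that crosslinks the heavy chains on hyaluronan together with TSG-6, gave 7.61, 6.57 and 7.0 on the null arrays and 6.03, 5.88 and 6.28 on the heterozygous arrays, a difference of 1.0 (SE 0.27). Its groups did not overlap, and the difference was 0.72 without null replicate 1. Prg4, the joint lubricant lubricin, gave 9.72, 9.39 and 9.85 against 9.16, 9.10 and 8.66, again without overlap, a difference of 0.68 (SE 0.19). Tnc and Dcn, a tenascin and a small proteoglycan, differed by 0.41 (SE 0.21) and 0.35 (SE 0.18) with overlapping groups. Tnc was at 0.26 without null replicate 1, and Dcn at 0.20 without null replicate 3 and 0.54 without both marrow-poor arrays.

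Genes that supply the 2 sugar precursors were higher in 9 of 11 cases with a median of 0.17, which was 0.31 without both marrow-poor arrays and 0.07 without heterozygous replicate 3. Ugdh, which makes UDP-glucuronic acid, differed by 0.39 (SE 0.17), Gfpt2, which commits sugar to the hexosamine pathway, by 0.37 (SE 0.16), and the phosphoglucomutase gene Pgm2 by 0.46 (SE 0.21). Gnpnat1, the acetyltransferase of the same pathway, differed by 0.25 (SE 0.13). Of these 4, Gfpt2 and Pgm2 had groups that did not overlap. The lowest differences with 1 array left out were smaller for all 4. Ugdh was at 0.31 without null replicate 1. Gfpt2 was at 0.22 without null replicate 3, and Pgm2 and Gnpnat1 were at 0.24 and 0.14 without heterozygous replicate 2.

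Other receptors of hyaluronan were higher in 8 of 8 cases with a median of 0.31, all with overlapping groups, and in 7 of 8 with a median of 0.21 without both marrow-poor arrays. The leukocyte integrin gene Itgam and the lymphatic receptor gene Lyve1 had differences of 0.80 (SE 0.38) and 0.83 (SE 0.41). For Lyve1 this was 0.40 without heterozygous replicate 3. Itgam is also 1 of the macrophage markers. Tlr2, a pattern receptor, and Itga4, an integrin subunit, had 0.28 (SE 0.19) and 0.34 (SE 0.25). Tlr2 was at 0.14 without null replicate 1, and Itga4 at 0.13 without heterozygous replicate 3. Of the breakdown genes 3 of 9 were higher and the median was -0.10, with 5 of 9 higher without heterozygous replicate 3. The count was 1 of 9 without null replicate 1 and 2 of 9 without both marrow-poor arrays. Only 4 of these 9 genes lay above the guide on all 6 arrays. The lysosomal hexosaminidase gene Hexa differed by -0.14 (SE 0.12), or -0.07 without heterozygous replicate 3. The hyaluronidase genes Hyal3, Hyal4 and Spam1 lay near or under the guide with differences of -0.23, -0.10 and -0.11. Hyal3 was at -0.12 without null replicate 1, and Hyal4 at -0.05 without null replicate 3. For Spam1, under the guide on every array, the null values were all below the heterozygous ones.

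Partners of Cd44 were higher in 12 of 17 cases with a median of 0.17, which was 0.08 without heterozygous replicate 2. Moesin (Msn), which ties the Cd44 tail to actin, gave 10.51, 10.26 and 10.15 on the null arrays and 10.06, 9.96 and 10.06 on the heterozygous arrays. Its groups did not overlap, and the difference of 0.28 (SE 0.13) was 0.18 without null replicate 1. Khdrbs1, which encodes the splicing regulator Sam68, differed by 0.25 (SE 0.12) and the scaffold gene Slc9a3r1 by 0.16 (SE 0.11), both without overlap, and fibronectin (Fn1) by 0.55 (SE 0.32) with overlap. Slc9a3r1 was at 0.07 without null replicate 1, and Fn1 at 0.32 without heterozygous replicate 2. Proteinases that cut versican were higher in 7 of 8 cases with a median of 0.36, which was 0.20 without heterozygous replicate 2. Adamts5 gave 7.55, 7.47 and 8.20 on the null arrays and 7.01, 7.18 and 7.33 on the heterozygous arrays, a difference of 0.57 (SE 0.21) without overlap, or 0.34 without null replicate 3. Adamts15 differed by 0.49 (SE 0.38) with overlap, by 0.24 without heterozygous replicate 2 and by 0.84 without heterozygous replicate 3. Adamts20 and Mmp7 lay near or under the guide with differences of 0.49 (SE 0.21) and -0.24 (SE 0.12). The groups of Mmp7 did not overlap, and Adamts20 was at 0.30 without null replicate 3.

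The genes most like the remaining members were of mixed kinds. For Has1 they were Zfp462, Hes1 and Mocos, at root mean square differences of 0.039 to 0.046. For Hyal2 they were Prcc, Zfp148 and Hgh1, at 0.033 to 0.040, and for Has2 on 1449169_at Cdr2l, Hspb11 and Baiap2, at 0.068 to 0.077. The last 3 share with that probe set the high value of null replicate 1.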

How the data were processed

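The deposited table holds 1 value per probe set and array. From its range (1.65 to 14.49) and array medians (4.55 to 4.59) the deposited values were taken to be log2. Arrays were hybridised per the labels' protocols, with the normalisation step not given in the sources used here. Near background, arrays understate differences, and between-array normalisation can hide a change common to most genes.

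Of 45101 probe sets 64 controls were left out. Groups came from the genotype labels, and replicate numbers are in sample order and pair nothing. A 2-group linear model was fitted to all 45037 remaining probe sets with no filter (limma 3.58.1, R 4.3.3, moderated by eBayes), giving differences, SEs and two-sided p-values with Benjamini-Hochberg adjustment. The fitting code was run on simulated data with noise independent between probe sets. Such data lack the marrow differences between these arrays. The labels give no litter or batch. Symbols came from the supplied platform annotation. In lists each gene has its probe set with the highest mean.

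The members, lists and settings were chosen with earlier results of these data known. The rule named all probe sets of the members, Cyp24a1, up to 4 genes per list with the lowest unadjusted p, and 3 genes most like each member in profile. Genes named as markers (Col1a1, Col2a1, Matn1, Hapln1, Aif1 and Marco) were chosen after their values were seen.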

Additional observations from a re-analysis of the deposited data

How the results depend on the processing

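No probe set of the hyaluronan genes passed in limma's adjusted test under any of 16 settings, and none of all probe sets did in 15 of them: other normalisations (quantile, cyclic loess, median centring), array weights, another variance prior, fewer probe sets tested, arrays left out, or the macrophage covariate. With the neutrophil list mean as a covariate, chosen after seeing the data like that of macrophages, 1 unnamed probe set passed. The count of hyaluronan probe sets higher in null callus, 15 of 23, was 12 to 17 with each array left out, 8 of the 9 above the median level and 7 of 8 with 1 probe set per gene. The last 2 differ because fewer probe sets were tested. Probe sets at an unadjusted p under 0.05 numbered 1660 over all, but 1048 without null replicate 3, 1062 without heterozygous replicate 1, 2721 without heterozygous replicate 3, 3453 without both marrow-poor arrays, 4631 with array weights, and 3704 and 3654 with the macrophage and neutrophil covariates. The cause was not tested. Of 339 alternative differences of the 23 probe sets, 333 moved by less than 1 SD between replicates and 6 by 1 SD or more. With 3 arrays per group, leaving 1 out cannot move a difference that far. Testing fewer probe sets or using another variance prior cannot move it at all, so the 333 do not measure stability. Among the 6 were Vcan 1421694_a_at (0.28 in place of 0.90) and 1427256_at (0.48 in place of 0.79) with the macrophage covariate. Of the 339, 30 changed sign. These were on 12 probe sets of Has1, Has2, Hmmr, Hyal2 and Vcan, the Vcan ones all at or under the background guide. No paired analysis was possible because the labels give no replicate numbers shared between the genotypes. A second pseudocount was planned for linear values and was not run, since the values were taken as log2.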
